A study of Drosophila melanogaster with 6 samples.

Results

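Axon guidance and neural adhesion genes encode the secreted and cell-surface proteins that steer growing axons and hold neurons to their partners. The set was fixed as a list of 39 genes, 1 of them (stan, also called fmi) listed under both of its names. A gene entered when the platform annotation named a probe set with that gene alone, under current symbols, and it was represented by its probe set with the highest mean over all arrays. This left 31 genes of the 10844 that could be named in this way. NetA, robo2, robo3, Sema1b, Sema2a, PlexA, Fas2 and Fas3 were not analysed here.

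The study measured total RNA of sorted fruit fly (Drosophila melanogaster) cells on 6 one-colour expression arrays, each with 13966 probe sets that were not controls. All cells came from flies or cultures with a red fluorescent protein, dsRed1, driven by a 2.1 kb promoter fragment of Gad1, the gene of the enzyme that makes the inhibitory transmitter GABA. LB_pos was 1 array of the fluorescent fraction sorted from larval brain and ventral nerve cord, and LB_neg, also 1 array, held the cells of that tissue without fluorescence. EC_pos, with 4 arrays named a to d, held fluorescent cells sorted from cultured embryonic cells. Larval age, strain, time in culture and the number of animals behind an array are not given in the labels. A reporter driven by a fragment of a promoter marks the cells in which that fragment is active, which need not be all cells that use the gene. Larval tissue and embryonic culture differ in stage and in culture together, so those effects cannot be told apart. Separate cultures are not named for the EC_pos arrays, so p-values reflect the spread of these 4 arrays alone, and that spread may be technical.

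Guidance works through pairs of ligand and receptor. Netrins attract through Frazzled (fra) and repel through Unc-5, Slit repels through the Robo receptors, and Commissureless (comm) keeps Robo off the surface of axons as they cross the midline. Semaphorins act through plexins, ephrin through Eph, and Wnt5 through Derailed (drl). Adhesion proteins such as Neuroglian (Nrg), Neurotactin (Nrt), N-cadherin (CadN) and Flamingo (stan) then bind axons to each other and to their targets, and receptor tyrosine phosphatases act in growth cones of the embryonic and larval nervous system.

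Of the 31 genes, 29 lay above the median of all intensities (197.35) on at least 1 array and were tested, as did 9635 of the 13966 probe sets. Otk, stan, Sema1a, Mical and Sema2b passed this limit only through larval arrays, and robo1, Ephrin and caps only through EC_pos arrays. For these genes, being bright in that group was a condition of entry. Intensity is the brightness of a probe set in arbitrary units, and differences are given as log2(intensity + 53.6), which understates changes of dim genes. The ligand gene sli, for Slit, was dim throughout, at 13.8 on LB_pos, 13.2 on LB_neg and 7.3 to 16.8 in EC_pos. The phosphatase gene Ptp10D was at 34.9 on LB_pos, 11 on LB_neg and 16 to 48.8 in EC_pos. Neither was tested, and these values do not show whether the genes were off.

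Several features of the arrays bear on what follows. The Gad1 probe set was dim everywhere, at 54.8 on LB_pos, 22 on LB_neg and 22.2, 27.6, 37.1 and 39 on EC_pos arrays a to d, so it did not pass the brightness limit and gave no check of the sort. EC_pos array a stood apart, with log2 intensities over the tested probe sets that correlated with those of b, c and d at Pearson's r between 0.588 and 0.707, against 0.908 to 0.944 among b, c and d, as a description. Its ratio of 3' to 5' control probe sets, a sign of RNA or label quality, was 866 for GAPDH against at most 42.4 on any other array. For eIF4a it was 640 against at most 120, and for actin 148 against at most 72.5. The larval arrays differed too. LB_pos was at 58.3 for actin, 40.1 for eIF4a and 8.9 for GAPDH, and LB_neg at 29.5, 120 and 19.5. Hybridization controls had a geometric mean of 7382 on LB_pos, 2527 on LB_neg, 3739 on EC_pos array a and 1270 to 1562 on the others. Their part in the results was not tested, and results against EC_pos are given with and without array a. The summed intensity of 12 neuron markers was 14943.6 on LB_pos and 15736.2 on LB_neg. On EC_pos it was 25661.6 on array a, 10559.2 on b, 5519.3 on c and 4948.6 on d. The sum of 6 muscle markers was 553 on LB_pos, 680.4 on LB_neg, 2478.4 on array a and 9015.7 to 13411.2 on b, c and d. Leaving out array a thus drops the culture array brightest for neuron markers and dimmest for muscle markers.

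**Figure D1:**
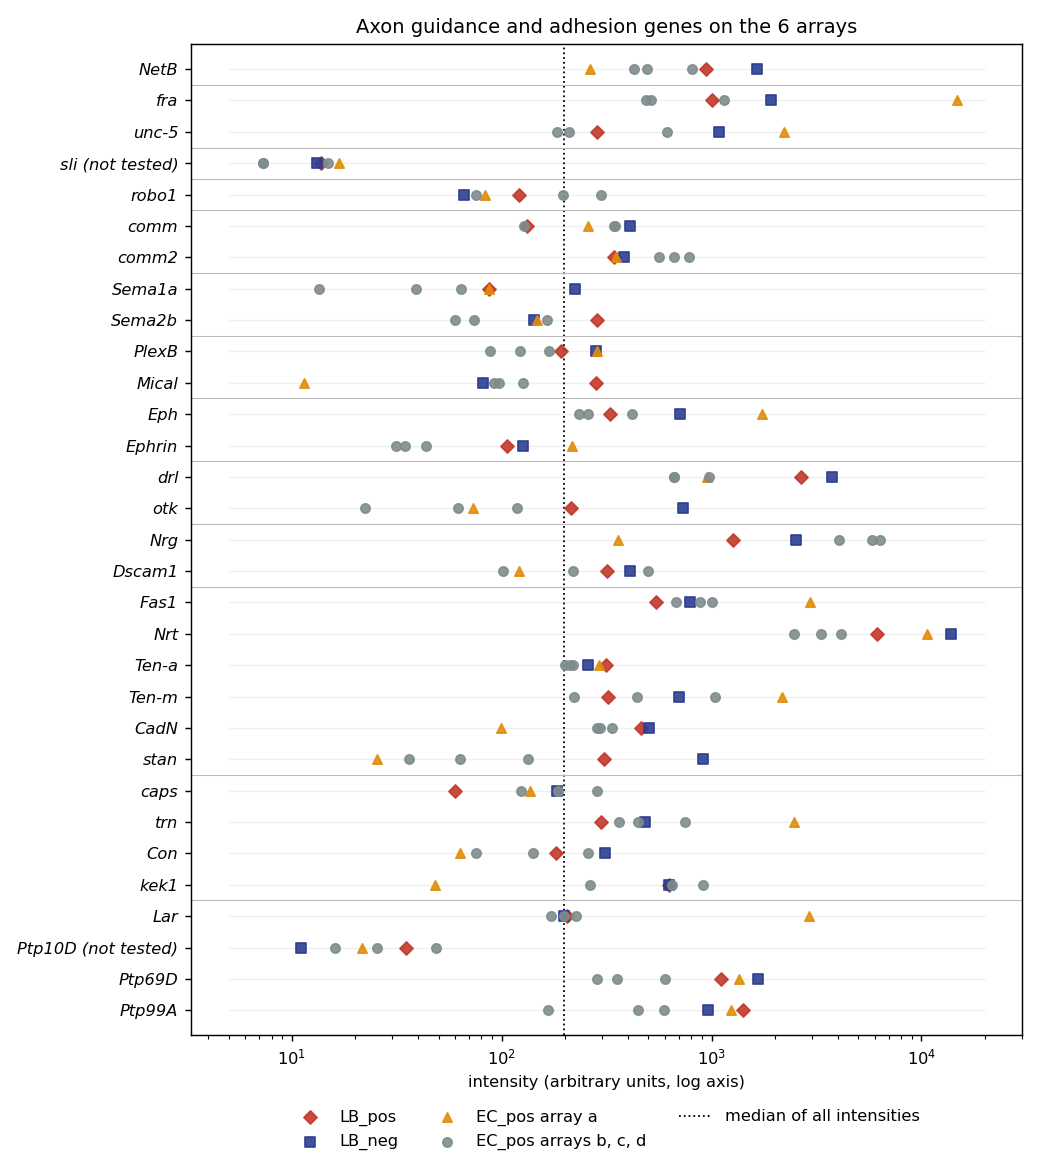
Intensity of each of the 31 genes on each array (log axis, arbitrary units), 1 row per gene, with thin lines between functional groups. Diamonds are LB_pos, squares LB_neg, triangles EC_pos array a and circles EC_pos arrays b, c and d, and the dotted line is the median of all intensities. The square lies right of the diamond for 22 of the 29 tested genes, and the triangle often lies far from the circles, as for fra at 14722.2.

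The first comparison set the reporter-positive larval cells against the reporter-negative cells of the same tissue. Most guidance and adhesion genes were dimmer on the LB_pos array, which held 22 of the 29 tested genes (75.9%) below and 7 above the LB_neg array, beside 44% and 56% of all tested probe sets. The netrin receptor gene unc-5, the midline gene comm and the surface proteins otk, stan, Nrt, caps and Ten-m were lower on LB_pos by at least 1 log2 unit, and the plexin effector Mical was the 1 gene higher by that much. That is 7 of 29 lower (24.1%), beside 7.38% of all tested probe sets, and 1 of 29 higher (3.45%), beside 11.8%. The median difference was -0.56 over the 29 genes and 0.11 over all tested probe sets. With 1 array per fraction this pair has no replicate error of its own, so the differences are given without one, and a limma contrast that borrows the EC_pos spread follows below. In bulk samples, fewer cells that use a gene and less of its RNA per cell cannot be told apart.

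Scaling moved the level of all probe sets. With the arrays set to a common median, the median of all tested probe sets was -0.18 and that of the guidance genes -0.88, and after quantile normalization these were -0.02 and -0.69. The split of all probe sets at 1 log2 unit, 11.8% higher and 7.38% lower on LB_pos as deposited, became 8.47% and 9.65% when quantile-normalized, and a common median gave 7.20% and 14.2%. Relative to the median of all probe sets, 24 of the 29 genes lay below and 5 above under each of these 3 scalings. Scaling moves the probe sets of an array nearly together, so this equal count is not a separate check. Under the common median 12 were lower by at least 1 unit, and after quantile normalization 9, with 1 higher each time.

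Among the midline genes, unc-5 had the widest larval difference. Its brightest probe set was at 284.6 on LB_pos and 1090.4 on LB_neg, a difference of -1.76 (-0.57 over the mean of its probe sets), and on the EC_pos arrays it was at 2213.8 (a), 610.4 (b), 209 (c) and 182.4 (d). The EC_pos arrays alone thus spanned more than the larval pair. Comm was at 131.9 on LB_pos and 408.9 on LB_neg, a difference of -1.32, and at 257.6, 342.6, 127.6 and 345.6 on EC_pos arrays a to d. LB_neg was above and LB_pos within the EC_pos range. The attractive receptor gene fra was at 1005.5 on LB_pos and 1928.4 on LB_neg (-0.90), and its ligand NetB at 944 and 1637.8 (-0.76), so both netrin receptors and the ligand lay lower on LB_pos. The neighbouring family member comm2 was nearly level, at 342.7 on LB_pos and 382.9 on LB_neg (-0.14).

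The receptor genes otk and stan were dim in culture and brightest in LB_neg. Off-track (otk) encodes a receptor-like protein of the PTK7 family that acts with plexins, and it was at 214.6 on LB_pos, 729.7 on LB_neg and 72.9, 118.4, 62 and 22.2 on EC_pos arrays a to d. Its larval difference was -1.55. Stan encodes the cadherin Flamingo, which serves axon targeting and planar polarity, and it was at 305.8 on LB_pos, 913.9 on LB_neg and 25.5, 36.3, 63.2 and 133.6 on EC_pos arrays a to d. Its larval difference was -1.43. For both genes LB_pos lay between the LB_neg value and all 4 EC_pos values. Both passed the brightness limit only through the larval arrays, so their brightness there was a condition of being tested.

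The adhesion gene Nrt was bright on every array by its brightest probe set. It was at 6129.9 on LB_pos and 13828.9 on LB_neg, a difference of -1.17, and at 10630.5, 4151.2, 3307.6 and 2457.8 on EC_pos arrays a to d. Both larval arrays were brighter than b, c and d, and array a lay between the larval arrays. The second Nrt probe set was dimmer, at 173.8 on LB_pos, 285.7 on LB_neg and 56.9 to 72.8 on b, c and d. There array a, at 627, was above both larval arrays. Caps, a leucine-rich repeat protein that guides motor axons and photoreceptors to their targets, was at 59.6 on LB_pos and 183.2 on LB_neg (-1.06), and at 136.1, 124.1, 284.9 and 184.4 on EC_pos arrays a to d. It was the 1 gene of these 7 for which LB_pos was dimmer than every other array. The teneurin gene Ten-m, which matches synaptic partners, was at 321.9 on LB_pos and 698.1 on LB_neg, a difference of -1.0 that only just reached 1 unit (-0.52 over the mean of its probe sets), and at 2171.1, 1041.8, 440.2 and 221.9 on EC_pos arrays a to d.

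Mical, an oxidoreductase that takes actin filaments apart downstream of plexin A, ran the other way. It was at 281.7 on LB_pos and 81.4 on LB_neg, a difference of 1.31, and at 11.4, 96.8, 91.7 and 126.8 on EC_pos arrays a to d. LB_pos was the brightest of all 6 arrays for this gene. The secreted semaphorin gene Sema2b was also brightest on LB_pos, at 283.4 against 141.7 on LB_neg (0.79) and 60.2 to 164 on the EC_pos arrays. The membrane-bound Sema1a showed the opposite order, at 87.2 on LB_pos and 224.1 on LB_neg (-0.98). Mical and Sema2b passed the brightness limit only through LB_pos, and Sema1a only through LB_neg.

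Of the remaining tested genes, Eph (-0.99), Sema1a (-0.98) and Nrg (-0.97) lay just short of 1 unit. The larval difference exceeded the whole range of the 4 EC_pos arrays for otk, stan, comm and caps, all lower on LB_pos, which is 4 of 29 (13.8%), beside 7.18% of all tested probe sets. No gene exceeded it in the other direction, where 11% of all probe sets did. The EC_pos values of otk (22.2 to 118.4) and stan (25.5 to 133.6) were dim, so the constant added before the log shortened their EC_pos ranges. As plain intensities, both genes had a larger ratio of highest to lowest EC_pos array than of LB_neg to LB_pos. Their place among the 4 genes thus depends on that constant, and the shares were not recounted without it. Against the narrower range of arrays b, c and d, 9 of 29 were lower (31.0%), beside 18.2%, and 2 higher, beside 23.8%. A limma contrast of the larval pair, with its spread taken from the EC_pos arrays, called 0 of the 29 genes at an adjusted p under 0.05 and 0 of 29 at an unadjusted p under 0.05. Over all probe sets that contrast called 0%, with 3.18% at an unadjusted p under 0.05. Without array a it again called 0 of 29, beside 0.239%, and 5 of 29 had an unadjusted p under 0.05, beside 12.1%.

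**Figure D2:**
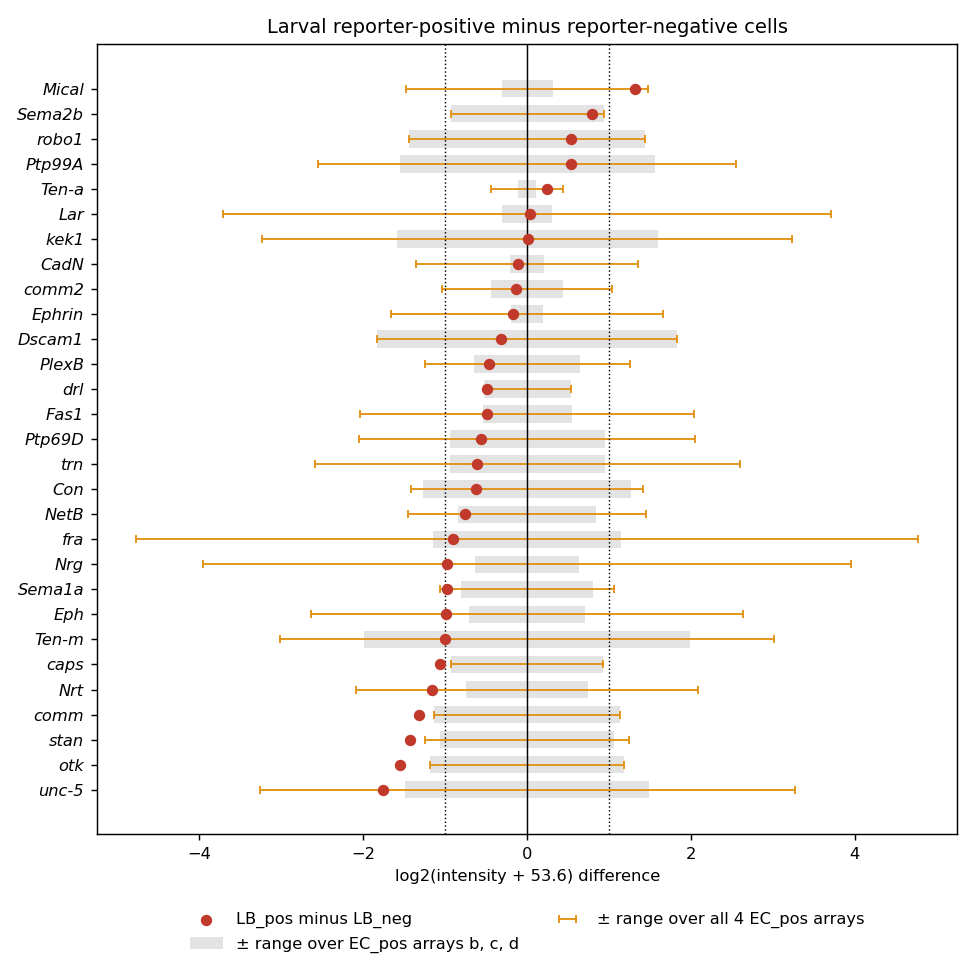
Difference of log2(intensity + 53.6), LB_pos minus LB_neg, for the 29 tested genes (red points), sorted from highest to lowest. The orange lines span plus and minus the range over all 4 EC_pos arrays, the grey bars the range over arrays b, c and d, and dotted lines mark 1 log2 unit. Only caps, comm, stan and otk lie outside their orange line, which the added constant shortens for stan and otk, dim in EC_pos.

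Markers of neural stem cells were also mostly dimmer on LB_pos. Of 11 neuroblast markers tested, 6 were lower by at least 1 unit on LB_pos and 10 lower in all, with a median of -1.27. Over all tested probe sets 7.38% were lower and 11.8% higher by at least 1 unit, and 44% lower in all. These shares are the background for the other marker counts here too. Their summed intensity was 10745.7 on LB_pos, 24907.6 on LB_neg and 3910.9 to 5680.4 on the EC_pos arrays. None of these markers was at or under 53.6 on all arrays. Of 8 neuron markers tested, 3 were higher and 1, elav, lower by at least 1 unit (median 0.11). The summed intensity of 9 glia markers was 3986.2 on LB_pos, 7165.3 on LB_neg and 3952.4 to 5568.7 in EC_pos. Gene by gene, 5 of the 9 were higher and 4 lower on LB_pos (median 0.05). Only 1 of them, gcm, was lower by at least 1 unit on LB_pos. The part of these cells in the guidance genes' differences was not tested.

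The second comparison set the larval fractions against the fluorescent cells of embryonic culture. The Wnt5 receptor gene drl, otk and stan were brighter on both larval arrays than on all 4 culture arrays, as were NetB, Sema1a and CadN. Of these, otk, stan and Sema1a passed the brightness limit only through larval arrays. The L1-family adhesion gene Nrg was instead dimmer on both larval arrays than on culture arrays b, c and d. Those 6 of 29 genes (20.7%) above all 4 EC_pos arrays stood beside 21.4% of all tested probe sets, so the share was near the background. No gene lay below all 4 on both larval arrays, where 14.1% of probe sets did. Against arrays b, c and d alone, 12 of 29 (41.4%) lay above on both larval arrays, beside 31.6%, and 2, Nrg and comm2, lay below, beside 21.4%. Both larval arrays were set against the same EC_pos arrays, so the 2 contrasts are not independent.

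With all arrays, limma called none of the 29 genes in any contrast with EC_pos at an adjusted p under 0.05. For LB_pos minus EC_pos that compares with 0.0311% of all tested probe sets, for LB_neg minus EC_pos with 0.54%, and for the mean of both larval arrays minus EC_pos with 3.3%. At an unadjusted p under 0.05 there were 2, 4 and 4 genes in these contrasts, beside 13.5%, 17.4% and 21.8% of all probe sets. The median difference of the genes was 0.43 for LB_pos and 0.60 for LB_neg, beside 0.24 and 0.11 over all tested probe sets. The spread came from the EC_pos arrays alone, and each larval array was assumed to vary like them. Beside these values, limma called 4 of 11 neuroblast markers and 1 of 9 glia markers higher in the mean of both larval arrays. It called 3 of 6 muscle markers lower. Of all tested probe sets, that contrast called 3.3% in both directions together and 2.58% lower, so the background for the higher calls is the smaller part. The part of these markers' cells in the guidance genes' values was not tested.

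Without array a, limma called 2 genes in LB_pos minus EC_pos, drl higher and Nrg lower, which is 1 of 29 in each direction beside 5.49% of probe sets higher and 8.61% lower. In LB_neg minus EC_pos it called 6 of 29 higher (20.7%), beside 10.6%, and 0 lower, beside 12.6%. These 6 were NetB, drl, otk, Nrt, stan and the phosphatase gene Ptp69D. Of these, otk and stan passed the brightness limit only through larval arrays, so their brightness there was a condition of being counted. For the mean of both larval arrays it called 7 higher, the same 6 and Ptp99A, beside 14.4%, and 1 lower, Nrg, beside 14.4%. Without array b, c or d it called 0 of 29 in each of these contrasts. The calls described next for guidance genes rest on leaving out array a, which was seen to stand apart. With array a kept, drl was called after quantile normalization and stan with a higher offset, for the mean of both larval arrays.

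Derailed, a Ryk-family receptor that steers axons away from Wnt5, had the smallest standard error with all arrays among the 8 genes called. Drl was at 2663.9 on LB_pos and 3764.2 on LB_neg, against 946.7, 976.9, 663.5 and 659.5 on EC_pos arrays a to d. Both larval arrays were well above all 4 EC_pos arrays, whose mean was 812 ± 174 (SD, n = 4). The log2 difference of LB_pos was 1.67 ± 0.51 (SE, limma adjusted p = 0.269) with all arrays and 1.75 ± 0.36 (adjusted p = 0.0167) without array a. For LB_neg it was 2.16 ± 0.51 (limma adjusted p = 0.103) and 2.24 ± 0.36 (adjusted p = 0.00362).

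Stan and otk were farther above culture in LB_neg than in LB_pos. For stan, LB_neg minus EC_pos was 3.12 ± 0.62 (SE, limma adjusted p = 0.0789) with all arrays and 2.95 ± 0.52 (adjusted p = 0.00544) without a. LB_pos minus EC_pos was smaller, at 1.69 ± 0.62 (limma adjusted p = 0.338) and 1.52 ± 0.52 (adjusted p = 0.0861). For otk, LB_neg minus EC_pos was 2.74 ± 0.60 (limma adjusted p = 0.0911) and 2.77 ± 0.55 (adjusted p = 0.00909), and LB_pos minus EC_pos 1.19 ± 0.60 (adjusted p = 0.444) and 1.23 ± 0.55 (adjusted p = 0.159). Whether the larval fractions differed for these genes is the larval comparison above, which had no replicates. Stan and otk were tested only because their larval values passed the brightness limit.

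Among ligands, NetB was at 944 on LB_pos and 1637.8 on LB_neg, against 262.4, 810.8, 491.8 and 427.2 on EC_pos arrays a to d. LB_pos only just exceeded array b. The difference of LB_neg was 1.71 ± 0.63 (SE, limma adjusted p = 0.236) with all arrays and 1.47 ± 0.42 (adjusted p = 0.0383) without a, and that of LB_pos without a was 0.71 ± 0.42 (adjusted p = 0.275). Sema1a was at 87.2 on LB_pos and 224.1 on LB_neg, against 86.7, 64, 13.5 and 39 on EC_pos arrays a to d, and LB_pos and array a were level. Limma called it in neither fit, with an adjusted p for LB_neg of 0.293 with all arrays and 0.0575 without a.

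Among adhesion proteins, N-cadherin was close in both larval fractions. CadN was at 458.5 on LB_pos and 500.9 on LB_neg, against 99.4, 336.9, 292.5 and 284.6 on EC_pos arrays a to d, and it was not called without array a either (limma adjusted p = 0.371 for LB_pos and 0.271 for LB_neg). Nrt differed between LB_neg and EC_pos by 1.65 ± 0.85 (SE, limma adjusted p = 0.384) with all arrays and 2.08 ± 0.35 (adjusted p = 0.00438) without a. The difference of LB_pos without a was 0.91 ± 0.35 (adjusted p = 0.112).

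Neuroglian, an L1-type cell adhesion molecule of neurons, glia and epithelia, was the 1 gene called lower in larval cells. Nrg was at 1261.8 on LB_pos and 2527.4 on LB_neg, against 357.3, 4052.9, 6311.9 and 5812.5 on EC_pos arrays a to d. Array a was thus below both larval arrays and b, c and d above both. The difference of LB_pos was -1.10 ± 1.48 (SE, limma adjusted p = 0.780) with all arrays and -2.02 ± 0.34 (adjusted p = 0.00713) without a, and that of LB_neg was -0.13 ± 1.48 (adjusted p = 0.980) and -1.05 ± 0.34 (adjusted p = 0.0586). Markers of epidermis and trachea, where this protein is also found, summed to 2177.8 on LB_pos, 1073.3 on LB_neg, 2406.8 on array a and 9100.5 to 17199.8 on b, c and d. Their part in the Nrg values was not tested.

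The receptor tyrosine phosphatases Ptp69D and Ptp99A, which act together in motor axon choice, were bright on both larval arrays by the probe sets used. Ptp69D was at 1105.9 on LB_pos and 1656.4 on LB_neg, against 1351.5, 598.6, 355.1 and 284.7 on EC_pos arrays a to d. Ptp99A was at 1408 on LB_pos and 957.1 on LB_neg, against 1235.3, 594.7, 448 and 166.9. In both genes array a lay between the larval values and b, c and d below them. Among the tested probe sets of Ptp99A this held for the brightest alone. With its probe sets averaged, the larval mean minus EC_pos was 0.53 for Ptp99A with all arrays, against 1.14 for the brightest. Without a, LB_neg minus EC_pos was 1.93 ± 0.44 for Ptp69D (SE, limma adjusted p = 0.0169), and the mean of both larval arrays minus EC_pos was 1.55 ± 0.46 for Ptp99A (adjusted p = 0.0373). With all arrays the same values were 1.52 ± 0.81 (limma adjusted p = 0.403) and 1.14 ± 0.70 (adjusted p = 0.391).

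**Figure D3:**
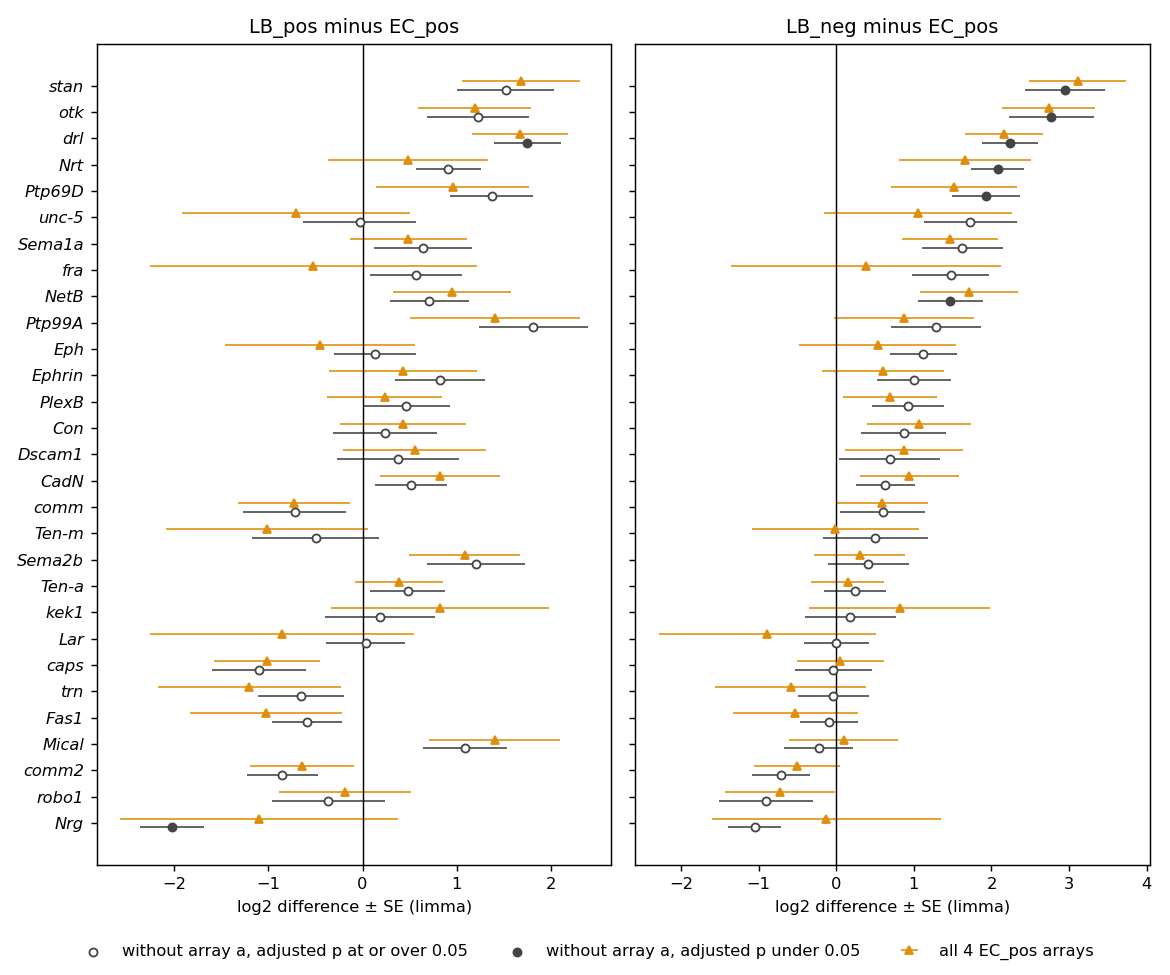
Log2 differences with their standard errors from limma, LB_pos minus EC_pos on the left and LB_neg minus EC_pos on the right, for the 29 tested genes sorted by the right-hand difference without array a. Triangles use all 4 EC_pos arrays and circles leave out array a, filled where the adjusted p was under 0.05. Filled circles are drl and Nrg on the left, and stan, otk, drl, Nrt, Ptp69D and NetB on the right, and no triangle passed that limit.

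The genes spread widely among the culture arrays. The median range over the 4 EC_pos arrays was 1.47 log2 units for the 29 genes and 1.23 for all tested probe sets, and over b, c and d it was 0.93 and 0.623. Array a was the brightest EC_pos array for 14 of the 29 genes (48.3%), beside 37.3% of all probe sets, and the dimmest for 8 (27.6%), beside 40.3%. It lay at least 1 unit above the mean of b, c and d for 11 genes and at least 1 below for 4, where 19.1% and 22% of all probe sets did.

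Among receptors, fra and Lar had the widest gaps between array a and the other culture arrays. The netrin receptor gene fra was at 14722.2 on array a against 1141, 511.5 and 486 on b, c and d, with 1005.5 on LB_pos and 1928.4 on LB_neg. The receptor phosphatase gene Lar, which guides axons and shapes synapses, was at 2910.3 on array a and at 172.5 to 225.9 on the rest, a range that held LB_pos at 203.8 and LB_neg at 198.1. Without array a the Lar difference was 0.03 ± 0.42 for LB_pos (SE, limma adjusted p = 0.964) and 0.00 ± 0.42 for LB_neg.

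The leucine-rich repeat gene trn, a partner of caps in target choice, was at 296.6 on LB_pos and 482.3 on LB_neg, against 2459.6 on array a and 363 to 749.2 on the others. The receptor kinase gene Eph was at 328.2 on LB_pos and 703.7 on LB_neg, against 1733.2 on array a and 233.4 to 415.9 on b, c and d. Array a was also the brightest for Fas1, a lipid-anchored adhesion protein, at 2941.8 against 675 to 1009.2 on b, c and d. Kek1, a leucine-rich repeat and immunoglobulin protein that inhibits the EGF receptor, ran the other way, at 48.3 on array a and 264, 650.6 and 905.5 on b, c and d. The larval values of kek1 were nearly equal, at 627 on LB_pos and 623.5 on LB_neg.

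For several other genes the larval values lay within or close to the EC_pos range. The Slit receptor gene robo1 was at 120.8 on LB_pos and 66.3 on LB_neg, against 83.5, 297.5, 75.7 and 195.4 on EC_pos arrays a to d. The semaphorin receptor gene PlexB and the ligand gene Ephrin were at 190.9 and 105.9 on LB_pos and at 282.6 and 126.1 on LB_neg, within the range of the EC_pos arrays in each case. Dscam1, a homophilic receptor with very many splice forms, was at 317 on LB_pos and 406.9 on LB_neg, inside an EC_pos range of 101.5 to 496.8. Connectin (Con), a lipid-anchored adhesion protein of motor axons and muscle, was at 180.9 on LB_pos and 308.9 on LB_neg, against 63.1 to 257.9 in EC_pos, so only LB_neg exceeded the culture arrays. Comm2 was below 3 EC_pos arrays on both larval arrays but level with array a, which was at 351.3.

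Members with several probe sets gave a partial check. Of the 31 genes, 7 had more than 1 probe set. All 4 tested probe sets of the teneurin gene Ten-a were higher on LB_pos, by 0.24 to 0.62, and both tested probe sets of Mical were, by 0.62 and 1.31. A dimmer, untested Mical probe set ran the other way, at 35.2 on LB_pos and 79 on LB_neg, and another the same way, at 55.8 and 16.6. Both probe sets of Nrt were lower on LB_pos, by -1.17 and -0.58. The second probe set of Ten-m was level, at 494.3 on LB_pos and 511.5 on LB_neg (-0.04). Its EC_pos values ran opposite to those of the first, at 175.3 on array a and 547.1 on array d.

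For Ptp99A the probe sets disagreed. A dimmer one was at 225.9 on LB_pos and 15.9 on LB_neg, a difference of 2.01, whereas another was at 107.1 and 176.5, a difference of -0.52. On the EC_pos arrays the first of these was at 11.3 to 68.1, a range that held its LB_neg value. The second was at 75.4 to 247.5 there, a range that held both its larval values. The unc-5 difference rests on 1 probe set, since the other 2 were at 136.4 and 60.3 on LB_pos and 140.7 and 53.4 on LB_neg and too dim to test. The files do not say which transcripts each probe set reads.

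**Figure D4:**
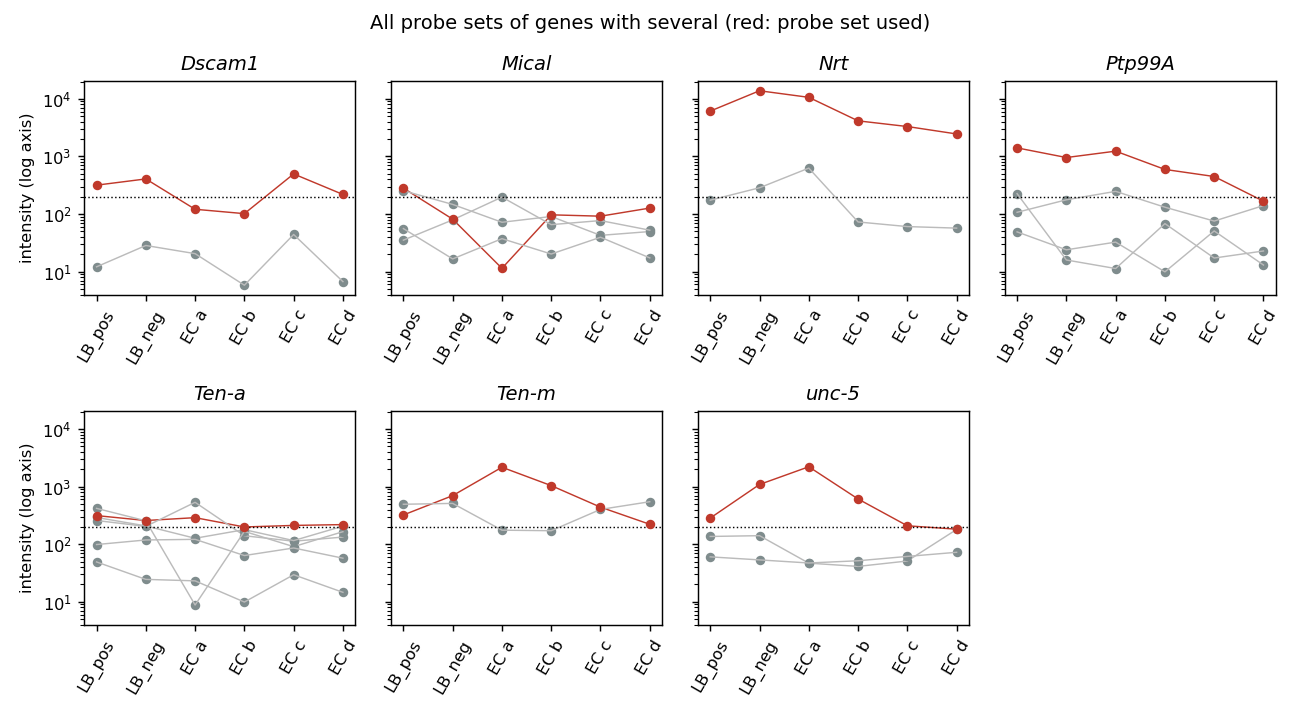
Intensity on each array (log axis, arbitrary units) for every probe set of the 7 genes with several, with the probe set used for the gene in red, the others in grey and the median of all intensities dotted. The probe sets of Ten-m run in opposite directions over the EC_pos arrays, and 1 grey probe set of Ptp99A is bright on LB_pos alone.

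Other genes of the pathway were taken from a fixed list of 125, in 4 groups, of which 99 were found and 86 tested. Their median larval difference was -0.04, with 5 of 86 higher and 8 of 86 lower on LB_pos by at least 1 unit. Over all tested probe sets 11.8% were higher and 7.38% lower by that much, which is the background for the counts in each group too. Among intracellular signalling genes, 1 of 19 reached 1 unit, Liprin-alpha, a scaffold that binds the phosphatase Lar, at 170.2 on LB_pos and 479.7 on LB_neg (-1.25). Among other ligands and receptors, 3 of 19 were higher on LB_pos. These were jeb, the ligand of the Alk receptor, at 1117.7 on LB_pos and 81 on LB_neg, side, a muscle-expressed attractant of motor axons, at 806.9 and 152.7, and Pvf1, a growth factor, at 172.2 and 25.5. The Toll receptor gene Tl was the 1 lower, at 386.8 and 870.9.

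Of 30 other adhesion genes, 5 lay at least 1 unit lower on LB_pos and 2 lay higher. The immunoglobulin protein gene Lac was at 1717.4 on LB_pos and 7061.9 on LB_neg (-2.01), against 5403.3 to 6882.3 in EC_pos. E-cadherin (shg) was at 54 on LB_pos and 195.6 on LB_neg (-1.21), and its partner alpha-Cat at 2077.1 and 4841.5 (-1.20). The higher ones were kek6, at 214.2 on LB_pos and 49.7 on LB_neg, and Dscam3, at 212.3 and 55.1. Against EC_pos with all arrays, limma called 0 of the 86 genes for LB_pos and 0 for LB_neg, and 3 lower for the mean of both larval arrays, beside 2.58% of all probe sets. Without array a it called 3 higher and 9 lower for LB_pos, beside 5.49% and 8.61%, and 10 higher and 15 lower for LB_neg, beside 10.6% and 12.6%.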

How the data were processed

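The authors deposited 1 linear intensity per probe set and array. Each array's mean, with 2% of probe sets trimmed at each end, was near 500.1, so arrays had been scaled to 1 level, and values were used as deposited. The software behind them is not given in the sources used here. Control probe sets (44) entered no test. Genes were named from the platform annotation, updated by gene ID to current RefSeq symbols (12394 of 12443 probe sets with 1 gene). Another 327 had several genes and 1196 none.

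Values were taken as log2(intensity + 53.6), 53.6 being the 25th percentile of all intensities. Probe sets above the pooled median (197.35) on at least 1 array were tested. A model of 3 group means was fitted (limma 3.58.1, R 4.3.3) with a variance trend and 3 residual degrees of freedom from EC_pos. Limma pooled the spread of each probe set with that of all tested probe sets. With all arrays this added 3.74 prior degrees of freedom. Without array a fewer residual degrees of freedom remained, and the prior was estimated anew. Tests were two-sided and adjusted by Benjamini-Hochberg over all 9635 tested probe sets. The fit was tried on simulated data with normal noise, all arrays having the spread of EC_pos arrays b, c and d. Array a was left out of that spread, so the trial does not show how the fit behaves with it. The larval pair, 1 array each, was compared by its log2 difference.

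Values on every array are given for genes differing by at least 1 unit between larval arrays, called in any contrast, or with both larval arrays beyond all EC_pos arrays, and others were named to cover each role. From the wider lists, the 3 widest larval differences of at least 1 unit in each direction were named per list. Members and lists were chosen with earlier results of these data known. The number of arrays limits the precision.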

Additional observations from a re-analysis of the deposited data

Results flagged for a closer look

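In 4 of the 29 tested genes the EC_pos arrays held 1 array far from the other 3, measured as its gap to the nearest array divided by the whole range of log2 values. Chance gives this for about 1 in 20 groups of 4. That is 13.8% of the genes, beside 10.8% of all tested probe sets. It was array a each time, as for 8.88% of all tested probe sets. The ratio was 0.918 for Lar, where a was at 2910.3 and the next array at 225.9, and 0.882 for Ephrin, where a was at 215.2 and the next at 43.8. It was 0.84 for Nrg, where a was lowest at 357.3 and the next at 4052.9, and 0.847 for CadN, where a was lowest at 99.4 and the next at 284.6.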

How the results depend on the processing

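No paired analysis was possible because the groups share only 1 replicate letter. In the contrasts with EC_pos, the count of genes called was 0 with all arrays and ranged over leaving out each array in turn from 0 to 2 for LB_pos, 0 to 6 for LB_neg and 0 to 8 for the mean of both larval arrays, each maximum being without array a. For that mean, 1 gene was called after quantile normalization (drl), 1 with the offset at the 50th percentile (stan) and 2 with a gene's probe sets averaged (drl and stan). The genes with both larval arrays above all EC_pos arrays numbered 12 without array a, beside 31.6% of probe sets, and those below numbered 2, beside 21.4%. These counts without array a were added after seeing the data. For the larval pair, the 7 genes lower by at least 1 unit became 4 with the offset at the 50th percentile, 4 with probe sets averaged and 12 with a common median, and 0 by the limma contrast with or without array a, of which the contrast without a was added after seeing the data. The 1 higher gene became 0 with the offset at the 50th percentile, with probe sets averaged and by either limma contrast. With probe sets averaged only 27 genes passed the brightness limit, and Mical, the 1 higher gene, was not among them. The median larval difference was -0.88 with a common median. With the offset at the 50th percentile the difference of caps was -0.57. With probe sets averaged, that of unc-5 was -0.57 and that of Ten-m -0.52. No difference of a named gene reversed among 245 alternative values, of which 224 stayed on the same side of the threshold or within the EC_pos spread. Against EC_pos these were values that stayed uncalled, as none was called with all arrays. For the larval pair the limit was the SD of each gene over the EC_pos arrays, wide enough to hold the changes of unc-5 and Ten-m. The tally thus says little about how stable the differences were in size. The cause of the changes in this section was not tested. Differences of dim genes near the offset are compressed by construction, and no background values were used.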

Other observations

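The matrix and integrin genes of the wider list had a median log2 difference from EC_pos of -1.42 on LB_pos and -1.22 on LB_neg, beside 0.24 and 0.11 over all tested probe sets. Of 18 tested, limma called 3 lower and 0 higher for the mean of both larval arrays minus EC_pos with all arrays, and 9 lower and 1 higher without array a. Over all tested probe sets 2.58% were called lower with all arrays and 14.4% without a. The 3 were LanB2, a laminin subunit, vkg, a collagen IV chain, and Ndg, nidogen, all parts of basement membranes, named after their values were seen. LanB2 was at 140.2 on LB_pos and 283.4 on LB_neg, against 930, 1137, 1437.6 and 1367.7 on EC_pos arrays a to d, a difference of the larval mean of -2.30 ± 0.38 (SE, limma adjusted p = 0.0319). Vkg was at 46 on LB_pos and 125 on LB_neg, against 516.9 to 1182.1 in EC_pos (-2.64 ± 0.48, limma adjusted p = 0.0411). Ndg was at 35.6 on LB_pos and 16.4 on LB_neg, against 257.7 to 423 in EC_pos (-2.25 ± 0.40, limma adjusted p = 0.0380). For these 3 genes both larval arrays lay below all 4 EC_pos arrays. Vkg and Ndg passed the brightness limit only through EC_pos arrays. The collagen chaperone gene SPARC was the 1 matrix gene at least 1 unit apart in the larval pair, at 1251.2 on LB_pos and 2589.2 on LB_neg (-1.02).

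Summed hemocyte markers (8 genes), cells that make basement membrane, were at 1772 on LB_pos, 2387.4 on LB_neg and 1770.6 to 6848.6 in EC_pos, and 3 fat body markers at 544.6 on LB_pos, 458.7 on LB_neg and 287.2 to 553.1 in EC_pos. Their part in the matrix values was not tested. Of the neuron markers onecut, and of the fat body markers Fbp2, were at or under 53.6 on all arrays.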
